A study of Mus musculus with 12 samples.

Results

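The mRNAs of 4 membrane transport proteins, Piezo1, Clcn3, Abca2 and Mfsd10, were followed through RNA bisulfite sequencing (RNA BS-seq) of mouse neural stem cells. Their cytosines were chosen by measured values: a site was called when a library held a coverage of at least 20, at least 6 methylated reads and a level of at least 10%, in both replicates of at least 1 condition. Of 5451 cytosines listed for these genes in any library, 7 were called, out of 3150 called in the same way over all annotated nuclear genes. The share called over all genes was not determined, so nothing is read from the count of 7. These thresholds are those of the paper's standard filter. Its other filters against false positives were not applied, so a called site need not be among its high-confidence sites. The cells came from the subventricular zone of wild-type male C57BL/6 mice aged 6 to 8 weeks and grew for 4 days with EGF and bFGF in low (1.5 μM, LF), medium (10 μM, MF) or high (80 μM, HF) folic acid. Poly(A) RNA was taken from whole cells (LF, MF, HF) or from the polysome fractions of a sucrose gradient (pLF, pMF, pHF), with 2 replicates in each of the 6 groups and 12 libraries in all. The labels do not tie replicates to separate mice, so the p-values below measure the spread between these samples, which may be technical. The main test of gene coverage, in limma, pools that spread over all 6 groups, so it is not that of the groups compared alone. The median absolute log2 difference between replicates ran from 0.108 in LF to 0.371 in pLF. Where 1 library of a group was left out, the spread of that group came from the other groups. Whether a gene's mRNA was lower per cell or carried by fewer cells cannot be told apart in such bulk samples.

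Piezo1 is a cation channel opened by membrane tension, and in neural progenitors it is known as a sensor of the mechanics of the surroundings. Clcn3 is a chloride and proton exchanger of endosomes and synaptic vesicles, Abca2 is an ATP-driven lipid transporter of late endosomes and lysosomes with a known role in sterol and sphingolipid handling, and Mfsd10 belongs to the major facilitator superfamily and carries organic anions. 5-methylcytosine (m5C) in mRNA is written mainly by the methyltransferases NSUN2 and NSUN6, of which NSUN2 favours cytosines followed by guanines. Bisulfite turns an unmethylated cytosine into uracil, read as T, and leaves m5C as C, so the level of a site is the share of C among its C and T reads.

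The 7 called cytosines, the positions on which the levels rest, are shown with the 10 bases on each side, written 5′ to 3′ on the transcribed strand, with the called cytosine in capitals. Coordinates are on mm10 (GRCm38), exon numbers are those of the first transcript of each gene in GENCODE vM21, and all 5451 listed cytosines of the genes matched a C on their own strand of the RefSeq assembly GRCm38.p6.
Piezo1 exon 6, chr8:122502206-122502226, minus strand: caaccaaacgCaggctgtggc
Piezo1 exon 34, chr8:122488229-122488249, minus strand: aggccgtagcCacatgatgca
Clcn3 exon 14, chr8:60912338-60912358, minus strand: cagggaaaatCtggaggtgtg
Abca2 exon 30, chr2:25443222-25443242, plus strand: cccacagagaCgtggacgtcg
Mfsd10 exon 5, chr5:34635671-34635691, minus strand: gaggcatcagCaaggggaacg
Abca2 exon 8, chr2:25435140-25435160, plus strand: ttgaggagggCacccagtcac
Mfsd10 exon 1, chr5:34636956-34636976, minus strand: caacagggggCgccctgacca

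The first 5 of these were called in a condition other than HF, and the last 2 only in the libraries labelled HF. Most positions lie in coding sequence, at codon 186 and codon 1492 of 2546 in Piezo1, at codon 385 and codon 1623 of 2433 in Abca2, and at codon 154 of 456 in Mfsd10. The Piezo1 exon 34 site is base 9 of its exon, and the Abca2 exon 30 site is base 4 of its exon. The sequences shown are genomic, so at both of these sites the bases before the exon start are intron and absent from the spliced mRNA. The Clcn3 site lies in the last exon, in the 3′ UTR. It is 672 bases after the last annotated coding base and 425 bases before the transcript end. The Mfsd10 exon 1 site lies in the 5′ UTR, 56 bases before the start codon.

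The sequences were searched on the transcribed strand for CNGG and for CNNGG starting at the called cytosine, which can overlap in CNGGG. Of the 5 sites called outside HF, 4 held CNGG (Piezo1 exon 6 and Clcn3) or CNNGG (Abca2 exon 30 and Mfsd10 exon 5), while the Piezo1 exon 34 site and both sites called only in HF held neither. Either motif followed 15.4% of all 5451 cytosines listed for these genes, 24.6% of the 953 sites called by the same rule over all genes without the libraries labelled HF, and 13.6% of all 3150. No called cytosine was followed by A or G and then GGG, the dominant context that the paper reports downstream of its sites. A match describes the letters of the sequence and not the enzyme that acted there.

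**Figure D1:**
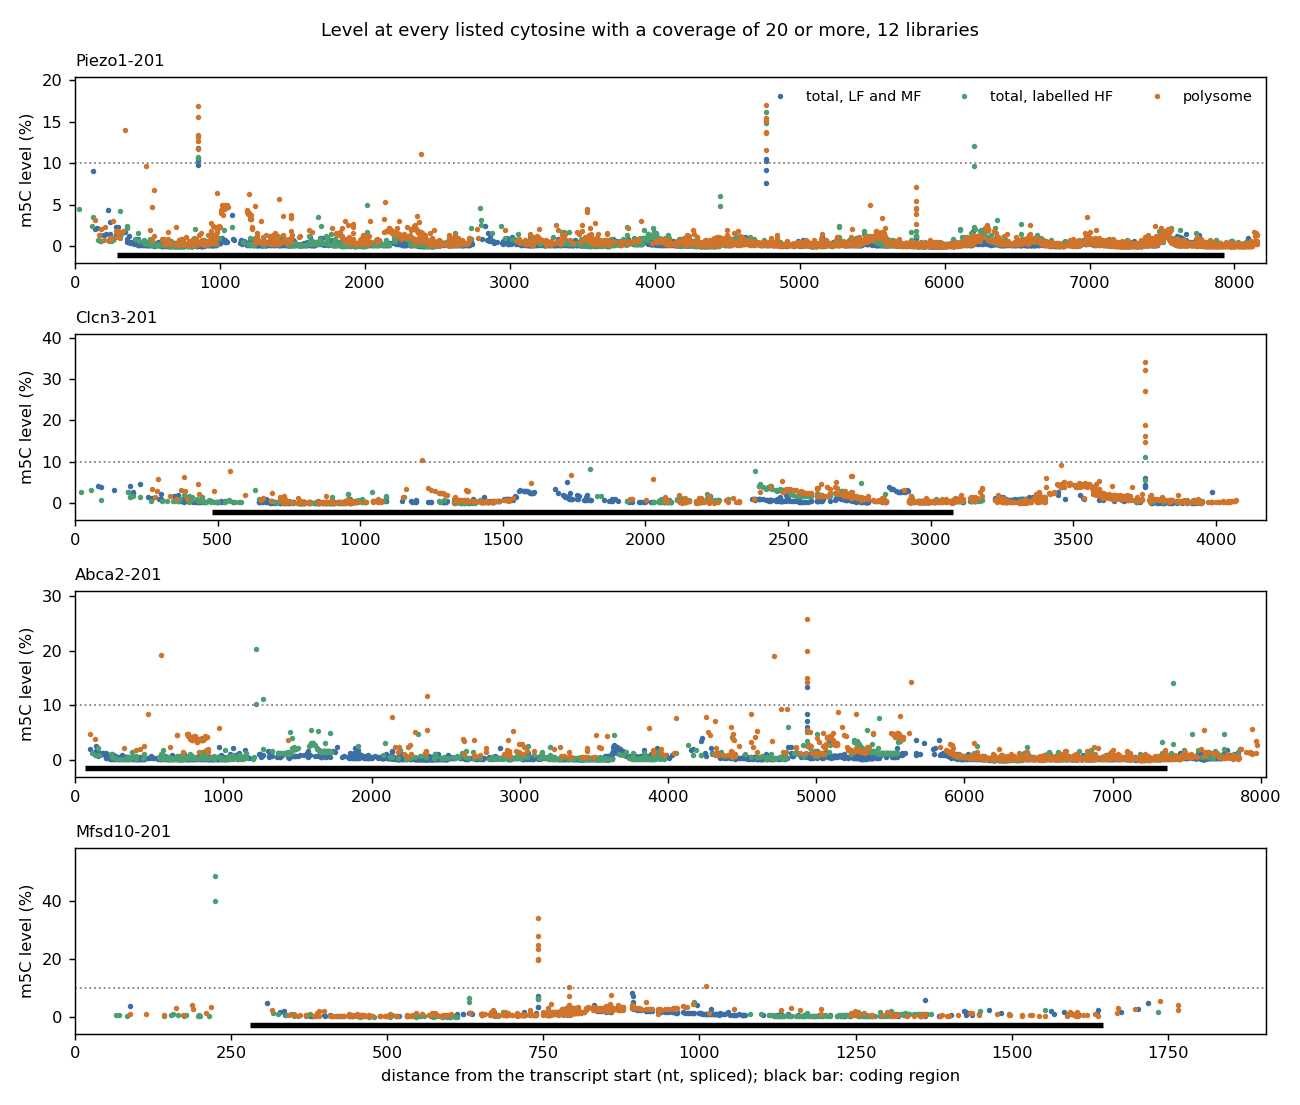
Level of m5C (%) at every listed cytosine with a coverage of 20 or more, plotted against the distance from the transcript start in spliced nucleotides for the first GENCODE transcript of each gene. Each dot is 1 cytosine in 1 library (blue, total mRNA of LF and MF; green, total mRNA labelled HF; orange, polysome mRNA), the black bar is the coding region, and the dotted line is the 10% used in the choice of sites, above which the called positions stand as columns of dots and positions that did not pass in both replicates as stray ones.

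Depth and library quality set the precision. Coverage summed over listed cytosines ran from 1186213013 to 2857966129 read bases per library. The libraries labelled HF stood apart from the other total mRNA: their log2 gene coverage over 6889 genes correlated at 0.767 to 0.823 with LF and MF, which correlated at 0.975 to 0.983 among themselves, and 953 of the 3150 sites over all genes would have been called without them. Limma called 2627 genes between HF and MF and 0 between LF and MF. Whether folate or another difference of sample or preparation sets these libraries apart cannot be told apart here, so high folate is used below as their label, also where pHF is set against HF. Polysome replicate pHF 2 also stood apart, with 38353 cytosines over a level of 0.9 against at most 3465 elsewhere. Of 10 neural stem cell markers, 9 were measured well enough to test, among them Nes, Vim and Fabp7, and Sox2 had no cytosine listed under its name alone. Cytosines labelled with several genes, 1.88% to 2.14% of those in a library, were not counted. The missing value therefore does not show that Sox2 was absent, and in the paper's staining all cells were positive for it. Of the other markers, 2 of 8 neuronal, 2 of 6 astrocytic, 2 of 8 oligodendrocyte lineage (Olig1 and Olig2), 1 of 6 microglial and 5 of 8 fibroblast and mural genes were measured that well, and Rbfox3, S100b, Mog, Mag, Aif1, C1qa and Csf1r had no cytosine listed under their names alone.

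The question asked of the sites is how their level differs between polysome and total mRNA and with folate. Because the level chose the sites, all level differences below are descriptions, with no test. The spread of a group is the SD over 2 replicates, and the replicate spread of a difference is the root of the summed squares of its 2 group SDs. The Clcn3 and Mfsd10 exon 5 sites differed by 15.9 to 21.6 percentage points between the fractions, with group means of 4.16% to 8.26% and 4.77% to 6.32% in total mRNA and of 20.8% to 26.4% and 21.8% to 27.0% in polysome mRNA, while the group means of the 2 Piezo1 sites ran from 8.41% to 15.5% over both fractions. The Abca2 exon 30 site differed by 7.53 points in low folate and 19.1 points in high folate.

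At the Clcn3 3′ UTR site, the level in total mRNA was 6.14% and 4.04% (LF), 3.95% and 4.37% (MF) and 5.50% and 11% (HF). In polysome mRNA it was 34% and 18.8% (pLF), 27.0% and 14.7% (pMF) and 32.1% and 16.3% (pHF). All 6 polysome libraries were above all 6 total libraries, and in each polysome group replicate 1 was the higher of the pair. The group means were 5.09% ± 1.49 (SD, n = 2) in LF against 26.4% ± 10.8 in pLF, 4.16% ± 0.295 in MF against 20.8% ± 8.71 in pMF, and 8.26% ± 3.90 in HF against 24.2% ± 11.2 in pHF. Coverage of the site was 309 to 763 reads in total mRNA and 47 to 301 in polysome mRNA, so the polysome levels are the less certain, with a Wilson 95% interval of 22.2% to 48.3% in pLF replicate 1. Intervals cover counting error only, since amplified reads are not independent molecules.

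At the Mfsd10 exon 5 site, the level in total mRNA was 3.42% and 7.30% (LF), 6.25% and 3.29% (MF) and 6.05% and 6.59% (HF). In polysome mRNA it was 19.5% and 34.4% (pLF), 20.0% and 23.6% (pMF) and 28.1% and 25% (pHF). Again no polysome library overlapped a total one. The polysome mean was higher by 21.6 percentage points in low folate (replicate spread of the difference 10.8), 17.0 points in medium folate (3.28) and 20.2 points in high folate (2.24). Coverage was 128 to 347 reads in total mRNA and 128 to 232 in polysome mRNA.

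At the Abca2 exon 30 site, the level was 5.97% and 8.33% (LF), 13.4% and 7.10% (MF) and 2.59% and 5.11% (HF). In polysome mRNA it was 15.1% and 14.3% in pLF and 25.8% and 20.0% in pHF. In medium folate the level was 5.41% in pMF replicate 1, from 2 methylated of 37 reads (Wilson 95% interval 1.50% to 17.7%), and the site was not listed in pMF replicate 2, so MF and pMF cannot be compared. In low folate the polysome mean was 7.53 points above the total mean (replicate spread 1.76), and in high folate 19.1 points above it (4.48).

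At the Piezo1 sites the fractions lay closer together. The exon 6 site was the deepest called site in total mRNA, with 597 to 1580 reads, and stood at 10.2% and 10.4% (LF), 11.8% and 9.81% (MF) and 10.7% and 10.7% (HF). In polysome mRNA it stood at 13.1% and 12.7% (pLF), 17.0% and 13.5% (pMF) and 11.7% and 15.6% (pHF). The polysome replicates lay above the total replicates in each folate group, by 2.62, 4.39 and 2.96 points in the mean, with replicate spreads of 0.319, 2.87 and 2.77 points. These values also show the edge of the choice, since LF passed at 10.2% and MF failed by 9.81% in replicate 2.

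At the Piezo1 exon 34 site, the level was 9.19% and 7.63% (LF), 10.3% and 10.5% (MF) and 14.8% and 16.2% (HF). In polysome mRNA it was 11.6% and 17.0% (pLF), 13.7% and 15.1% (pMF) and 15.4% and 13.6% (pHF). The polysome mean was 5.89 points higher in low folate (replicate spread 3.96) and 4.02 points higher in medium folate (0.961). In high folate the replicates overlapped, with a difference of -0.98 points (1.59).

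Over all genes, sites called by the same rule and listed with a coverage of at least 20 in the 4 libraries compared give the background for these counts. Both polysome replicates were above both total replicates at 5 of 5 measured sites of the 4 genes in low folate, where 52.6% of 627 sites did the same, at 4 of 4 in medium folate, where 44.7% of 599 did, and at 4 of 5 in high folate, where 46% of 535 did. The median difference was 7.53, 10.5 and 15.9 points at the sites of these genes and 3.56, 2.10 and 2.22 points over all sites. Sites that passed only in polysome mRNA, such as those of Clcn3 and Mfsd10, had to be higher there, so nothing is read from these counts.

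**Figure D2:**
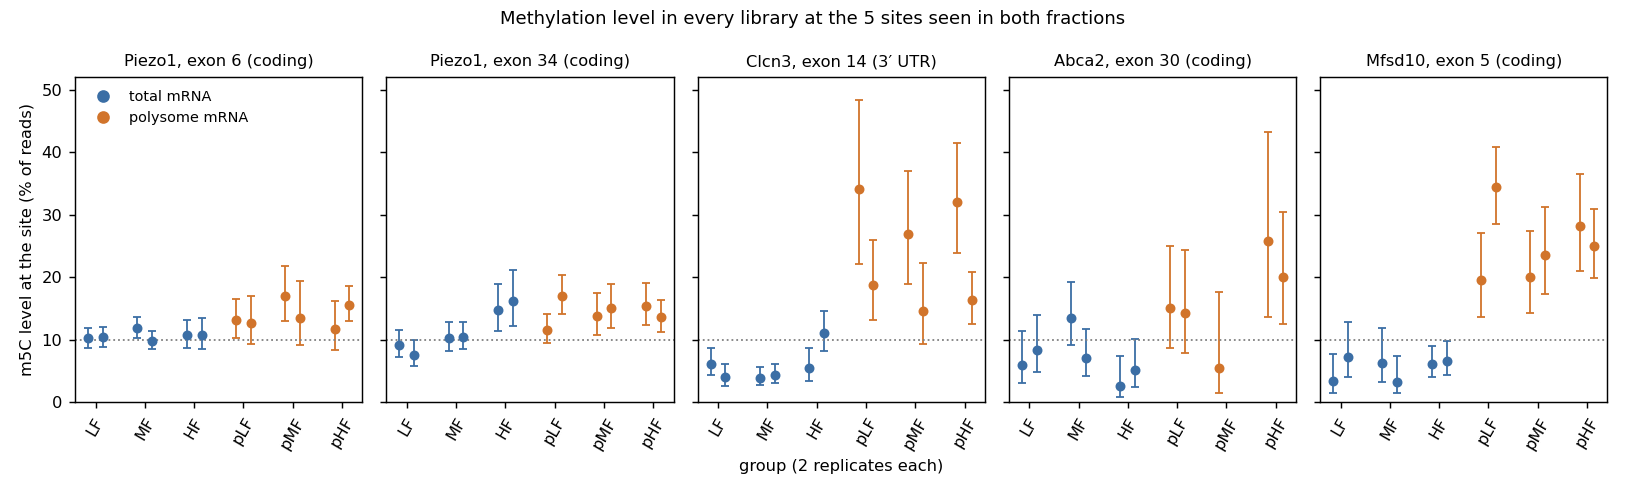
Level of m5C (% of C and T reads) in every library at the 5 sites listed in both fractions, with groups on the x axis, 2 replicates each (blue, total mRNA; orange, polysome mRNA), bars giving the Wilson 95% interval of counting error and the dotted line at 10%. At Clcn3 and Mfsd10 the 6 orange points lie above the 6 blue points, at Piezo1 the points lie between 7.63% and 17.0% in both fractions, and pMF replicate 2 has no point at Abca2.

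At Clcn3 and Mfsd10 exon 5 the folate groups of 1 fraction lay closer together than the fractions did. Both sites were chosen by passing in every polysome group and passed in no total group, so nothing is read from this. Between LF and MF, the replicates were apart at 1 of 5 sites, the Piezo1 exon 34 site, where the difference was -1.97 points (replicate spread 1.11), against 36.5% of 776 sites over all genes. Between pLF and pMF, they were apart at 1 of 4 sites, the Piezo1 exon 6 site, where the difference was -2.28 points (2.51), against 33.3% of 751 sites. Between pHF and pMF, they were apart at 1 of 4 sites, the Mfsd10 exon 5 site, where pHF was 4.78 points higher (3.36), against 33.7% of 582 sites. Between HF and MF, they were apart at 3 of 5 sites, with Clcn3 and Piezo1 exon 34 higher in HF by 4.10 and 5.11 points and Abca2 lower, at -6.41 points, against 85.6% of 648 sites. These comparisons share the MF or pMF libraries.

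The 2 sites called only in HF were listed in no other library. The Mfsd10 5′ UTR site had 21 methylated of 43 reads (48.8%, Wilson 95% interval 34.6% to 63.2%) and 8 of 20 reads (40%, 21.9% to 61.3%). The Abca2 exon 8 site had 17 of 84 (20.2%) and 9 of 88 (10.2%). Not being listed means a coverage under 10 or no methylated read, and which of these held was not determined. Coverage of the neighbours within 25 bases does not stand in for that of the site, since in HF replicate 1 it had a median of 579 reads around the Abca2 site, covered by 84, and of 344 around the Mfsd10 site, covered by 43.

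The cytosines around the sites were compared with them in windows of the genome. At Abca2 exon 30 and Piezo1 exon 34 these windows run into the intron before the exon. Within 25 bases of the 7 sites there were 12 to 21 other cytosines on the same strand, and among those with a coverage of at least 20 the highest level in any library was 5.13%, beside the Abca2 exon 30 site in pMF replicate 1, where the site itself stood at 5.41%, and 0.510% beside Piezo1 exon 34. In HF replicate 1 a neighbour of the Abca2 exon 30 site, at 3.45%, was above the site, at 2.59%. All 14 neighbours of the Mfsd10 exon 5 site had at least 1 methylated read in pMF replicate 1, pMF replicate 2 and pHF replicate 1, at no more than 3.13%, and all 12 neighbours of the Clcn3 site did in pHF replicate 1, at no more than 1.61%. The other libraries listed from 0 to 7 of these neighbours. The part of such reads in the site levels was not tested.

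Just under the choice lay 2 cytosines that reached 5% but not 10% in both replicates of a condition. The first is in Piezo1 exon 39, in coding sequence, and is shown because its depth is the highest of the positions named here.
Piezo1 exon 39, chr8:122486497-122486517, minus strand: gaatcgcagtCtgagacaggc
With 1180 to 1702 reads in total mRNA, its level was 0.971% and 1.24% (LF), 1.18% and 0.947% (MF) and 1.25% and 1.78% (HF). With 1069 to 1926 reads in polysome mRNA, it was 4.61% and 4.46% (pLF), 2.66% and 3.93% (pMF) and 7.14% and 5.50% (pHF). The polysome libraries were all above the total libraries, and the 3 polysome groups did not overlap each other. Only pHF reached 5% in both replicates, so the cytosine was picked through the group where it is high. Nothing is read from these separations. The second is Mfsd10 5:34636044 in coding sequence, at 6.70% and 5.05% in HF, at 1.39% in LF replicate 2 and listed in no other library. A further 6 cytosines passed in 1 library of a condition only, at 10.3% to 14.1% and with 50 to 134 reads: 3 in Piezo1 and 1 in each of the other genes.

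Gene coverage asks whether the mRNAs themselves were more or less abundant in polysomes. It was taken from the coverage of each gene's listed cytosines, of which the choice of sites used only the minimum of 20 at the called positions, as the library effect that remains after each cytosine's own mean is removed, centred on the median gene of each library, and it was tested with limma over 6889 genes with the Benjamini-Hochberg adjustment. The mean per cytosine is per length, but it runs over listed cytosines only, which favours well covered positions in poorly covered genes, so the order of the genes is approximate. Over 2105 genes with both regions fitted, the median polysome difference was -0.12, -0.24 and -0.17 in coding sequence in low, medium and high folate. In the 3′ UTR it was 0.23, 0.27 and 0.32. Differences in gene coverage between fractions therefore mix abundance with position in the transcript. Piezo1 averaged 586 reads per cytosine, above 76.5% of the genes tested, Abca2 254 (37.6%), Mfsd10 153 (13.1%) and Clcn3 138 (9.42%).

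Mfsd10 was the only gene of the 4 that rose in polysome mRNA. It had 102 and 89.1 reads per cytosine in LF and 118 and 108 in MF, against 203 and 189 in pLF and 181 and 168 in pMF. In HF it had 177 and 219, and in pHF 169 and 193. LF and MF were the low libraries, and HF overlapped the polysome libraries. The difference was a log2 1.03 ± 0.21 (SE), or 2.05-fold, for pLF against LF (adjusted p = 0.00127) and 0.63 ± 0.21, or 1.55-fold, for pMF against MF (adjusted p = 0.0250). It was -0.12 ± 0.21 for pHF against HF (adjusted p = 0.646), where the mean of listed cytosines gave -1.08 and passed (adjusted p = 0.0463). Whether the fraction difference depended on folate was tested as an interaction in limma, which gave -0.76 ± 0.30 for high against medium folate (adjusted p = 0.0815), where 1833 of 6889 genes passed, and 0.40 ± 0.30 for low against medium, where 0 of 6889 genes passed and 256 had an unadjusted p under 0.05. Leaving out the called sites gave 1.05, 0.63 and -0.10. The call for medium folate was lost without MF replicate 1 (adjusted p = 0.0756), MF replicate 2 (0.136) or pMF replicate 1 (0.0947) and on the mean of listed cytosines (0.509), and that for low folate on the mean of listed cytosines (0.0771). In edgeR, which rests on the exon 5 site alone and is given as a description because its coverage was used to choose it, the differences were 0.44, 0.51 and -1.08, of which the first was short of the threshold and the others past it. In pLF against LF, 3 of 5 fibroblast and mural markers were higher and 1 lower (median 0.94), and 2 of 2 astrocyte markers were lower (median -0.78). In pMF against MF, 2 of 5 fibroblast and mural markers were higher and 1 lower (median 0.12), and 1 of 2 astrocyte markers was lower (median -0.56), where 28% and 27% of all genes rose and 23.7% and 23.4% fell. The fibroblast and mural list held 0.151% to 0.342% of coverage in pLF against 0.275% to 0.289% in LF, and 0.186% to 0.198% in pMF against 0.243% to 0.273% in MF, so that its summed share did not follow the count of markers that rose. The astrocyte list 0.0171% to 0.0210% in pLF and 0.0163% to 0.0189% in pMF against 0.0367% to 0.0433% in LF and MF. The neuronal list held 0.00412% to 0.00644% in pLF and pMF against 0.0168% to 0.0193% in LF and MF, with 1 of 2 tested markers higher and 1 lower in each comparison. Neural stem cell markers were higher at 2 of 9 and lower at 2 in low folate, and higher at 4 and lower at 2 in medium folate, and their list held 0.779% to 1.08% in pLF and 1.10% to 1.12% in pMF against 0.883% to 1.00% in LF and MF. The oligodendrocyte lineage list had 1 of 2 markers lower in each comparison, and the 1 tested microglial marker passed in neither. Their part in the result was not tested.

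Abca2 was lower in polysome mRNA in the high folate comparison. In total mRNA it had 288 and 322 (LF), 308 and 302 (MF) and 396 and 290 (HF) reads per cytosine, against 345 and 177 (pLF), 255 and 228 (pMF) and 121 and 168 (pHF). The pHF libraries were the lowest of the 12. The difference was a log2 -1.25 ± 0.28 (SE), or 2.38-fold lower, for pHF against HF (adjusted p = 0.00243), -0.34 ± 0.28 for pMF against MF (adjusted p = 0.334) and -0.30 ± 0.28 for pLF against LF (adjusted p = 0.395) in limma. The last ran from -0.78 without pLF replicate 1 (adjusted p = 0.0218) to 0.18 without pLF replicate 2. In pHF against HF, 4 of 5 fibroblast and mural markers (median -0.78) and 5 of 9 neural stem cell markers (median -1.12) were also lower, and 3 of these 9 were higher, beside 22.8% of all genes lower and 28.3% higher. The first list held 0.199% to 0.265% of coverage in pHF against 0.469% to 0.504% in HF, and the second 0.938% to 0.985% against 0.766% to 0.858%. Of the neuronal markers 1 of 2 was lower, and that list held 0.00247% to 0.00356% in pHF against 0.0123% to 0.0132% in HF. The 1 tested microglial marker was lower (-0.99), and its list held 0.000536% to 0.000692% against 0.00224% to 0.00263%. Of the astrocytic markers 1 of 2 was lower, with 0.0215% to 0.0235% against 0.0242% to 0.0301%, and of the oligodendrocyte lineage markers 1 of 2 was higher, with 0.190% against 0.108% to 0.113%. Their part in the result was not tested. The interaction for high against medium folate was -0.91 ± 0.40 (adjusted p = 0.109 in limma). The call was lost on the mean of listed cytosines (-0.62, adjusted p = 0.156) and in edgeR (-0.26, adjusted p = 0.408), which rests on 1 cytosine of this gene. The pHF libraries, lowest in coverage of the gene, held the highest levels at the exon 30 site, from 31 and 75 reads.

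Clcn3 did not pass in any fraction comparison in the fit of cytosine and library effects. In reads per cytosine it had 193 and 90.1 (LF), 158 and 149 (MF), 139 and 135 (HF), 83.6 and 104 (pLF), 125 and 163 (pMF) and 174 and 195 (pHF). The LF replicates were the farthest apart of the 6 pairs. The differences were -0.50 ± 0.31 (SE) for pLF against LF (adjusted p = 0.190), -0.10 ± 0.31 for pMF against MF (adjusted p = 0.809) and 0.42 ± 0.31 for pHF against HF (adjusted p = 0.270) in limma. Without LF replicate 2 the first was -1.06 (adjusted p = 0.0157). On the mean of listed cytosines the second was -1.21 and passed (adjusted p = 0.0267). The methylated cytosine is the only one of the gene listed in all 12 libraries, and since its coverage was used to choose it, its 309 to 763 reads in total mRNA and 47 to 301 in polysome mRNA are a description. EdgeR on that cytosine gave -2.32, -2.38 and -0.95, all past the threshold, which are descriptions too.

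Piezo1 passed in no fraction comparison of the same fit either. Its reads per cytosine were 567 and 542 (LF), 579 and 562 (MF), 714 and 694 (HF), 747 and 408 (pLF), 606 and 497 (pMF) and 593 and 611 (pHF). The pLF replicates held the highest and the lowest value of the 12. The differences were 0.00 ± 0.23 (SE), -0.06 ± 0.23 and -0.23 ± 0.23 on the log2 scale, with adjusted p = 0.989, 0.857 and 0.425 in limma. With 1 pLF library left out the low folate difference went in either direction, at -0.44 without replicate 1 and 0.43 without replicate 2. On its 4 cytosines listed in all libraries, 2 of them the called sites, edgeR gave -0.47, -0.72 and -0.78, which are descriptions because the sites are among them. Of all alternatives tried, edgeR included, 1 of 13 passed for pMF against MF and 1 of 11 for pHF against HF.

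These counts stand against a background in which fractions differed throughout. For pLF against LF, 1 of the 4 genes was called, against 51.7% of all genes in either direction, 28% higher and 23.7% lower. For pMF against MF, 1 of 4 was called, against 50.5%, with 27% higher and 23.4% lower. For pHF against HF, 1 of 4 was called, against 51.2%, with 28.3% higher and 22.8% lower. With 4 genes nothing is read from these counts.

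**Figure D3:**
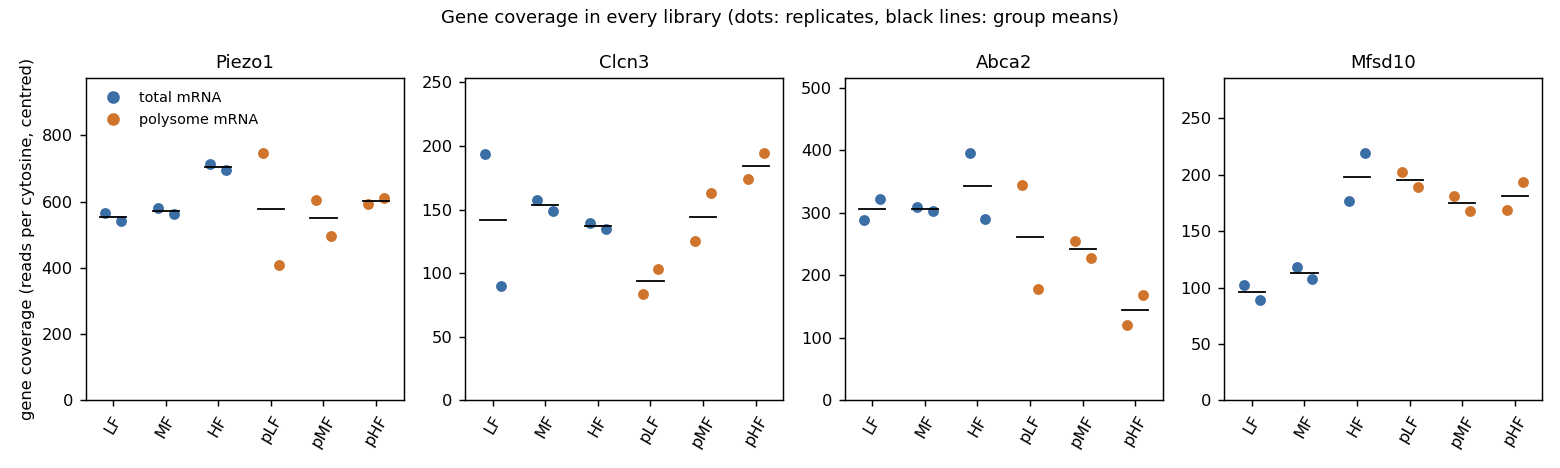
Gene coverage in reads per cytosine, centred on the median gene of each library, for each of the 4 genes, with groups on the x axis, dots for the 2 replicates (blue, total mRNA; orange, polysome mRNA) and black lines for the group means; each y axis starts at 0. Mfsd10 is low only in LF and MF, Abca2 is lowest in pHF, and the replicates of LF at Clcn3 and of pLF at Piezo1 and Abca2 lie far apart.

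With folate, none of the 4 genes was called between LF and MF, between pLF and pMF or between pHF and pMF, where limma called 0% of the 6889 genes and 78, 740 and 844 had an unadjusted p under 0.05. Their largest differences there were -0.24 for Mfsd10 (LF against MF), -0.62 for Clcn3 (pLF against pMF) and -0.76 for Abca2 (pHF against pMF). By edgeR the counts over all genes were 0, 0 and 10, with none of the 4 among them. Between HF and MF, Mfsd10 was called, at a log2 0.81 ± 0.21 (SE) or 1.75-fold higher (adjusted p = 0.0103 in limma), against 38.1% of all genes, 18.6% higher and 19.5% lower. The call was lost without MF replicate 2 (adjusted p = 0.0803) or HF replicate 2 (0.0850). Piezo1, at 0.30 (adjusted p = 0.309), passed with only the 4 libraries of the comparison (adjusted p = 0.0362), and the mean of its listed cytosines gave 0.57. Clcn3, at -0.16 (adjusted p = 0.714 in limma), passed in 1 of 11 alternatives, whose values ran from -0.93 to 0.10. In the same libraries 4 of the 5 tested fibroblast and mural markers were higher in HF, and that list of 8 genes held 0.469% to 0.504% of coverage in HF against 0.243% to 0.289% in LF and MF. Both tested oligodendrocyte lineage markers, Olig1 and Olig2, were lower in HF (median -0.86), and that list of 8 genes held 0.108% to 0.113% of coverage in HF against 0.256% to 0.272% in LF and MF. Of the neural stem cell markers 3 of 9 were higher and 1 lower, of the neuronal markers 1 of 2 was higher, and no astrocytic or microglial marker passed. The neuronal list held 0.0123% to 0.0132% of coverage in HF against 0.0168% to 0.0193% in LF and MF. For the astrocytic list these shares were 0.0242% to 0.0301% against 0.0367% to 0.0433%. The microglial list held 0.00224% to 0.00263% against 0.000655% to 0.00148%, and the neural stem cell list 0.766% to 0.858% against 0.883% to 1.00%. Their part in the result was not tested.

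Coverage within the transcript was then set apart by region. In Piezo1, coding coverage differed by -0.16, -0.14 and -0.31 (log2) between polysome and total mRNA in low, medium and high folate, while 3′ UTR coverage differed by 2.19, 2.47 and 1.32. Relative to its mean over the 12 libraries, the 3′ UTR stood at -1.22 and -1.29 in LF, -1.39 and -1.30 in MF, -0.35 and -0.43 in HF, 1.15 and 0.72 (pLF), 1.11 and 1.14 (pMF) and 1.04 and 0.82 (pHF). All 6 polysome libraries lay above LF and MF, with HF between. These rest on 12 to 64 cytosines per library. Among 2105 genes with both regions fitted, the median of this gap between 3′ UTR and coding differences was 0.42, 0.59 and 0.55, and a gap as large as that of Piezo1 occurred in 1.57%, 1.43% and 12.6% of them. The region was looked at after the gene values were known, and no test was run.

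Clcn3, whose site lies in the 1097 bases after its last annotated coding base, showed a smaller gap. Its coding coverage differed by -1.02, -0.50 and 0.34 and its 3′ UTR coverage by -0.06, 0.01 and 0.55. A gap of that size or more occurred in 24.8%, 53.9% and 63.3% of the 2105 genes. In Mfsd10, where nearly all listed cytosines are coding, the coding values of 1.03, 0.62 and -0.16 repeated those of the gene, and in Abca2 the coding values were -0.33, -0.43 and -1.28.

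**Figure D4:**
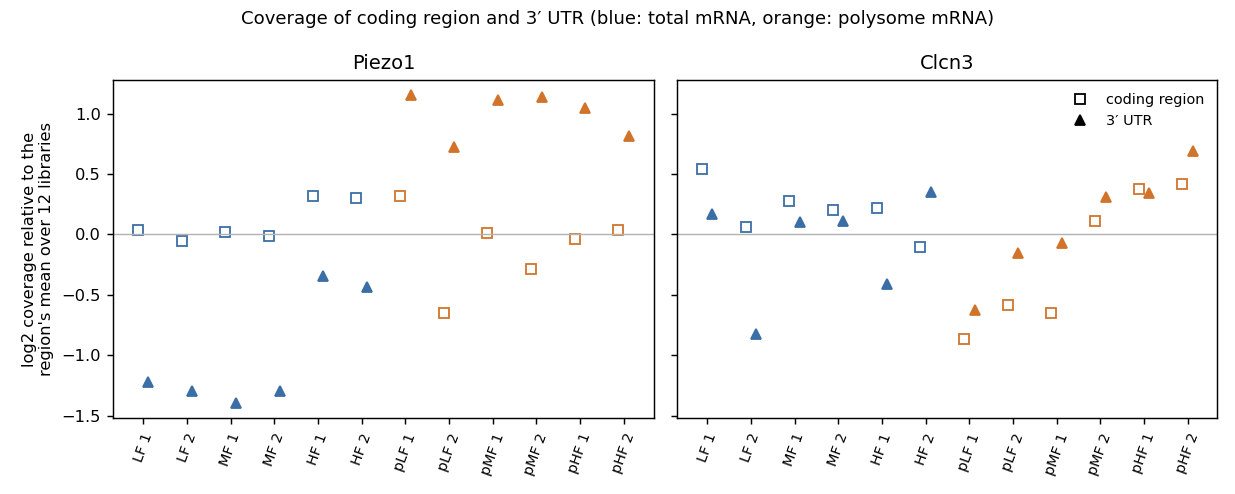
Log2 coverage of the coding region (open squares) and the 3′ UTR (filled triangles) of Piezo1 and Clcn3 in each library, relative to that region's mean over the 12 libraries (blue, total mRNA; orange, polysome mRNA). The Piezo1 3′ UTR lies between -1.39 and -1.22 in LF and MF and between 0.72 and 1.15 in polysome mRNA, while its coding region lies between -0.65 and 0.32.

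Genes related to the 4 were taken from lists of their families, leaving out the 4 themselves. Of the CLC chloride channels, exchangers and partners, 6 other genes were tested. Ostm1, the partner subunit of the lysosomal exchanger Clcn7, fell in all fraction comparisons, by a log2 of -0.96, -1.27 and -0.93, and Clcc1, a channel protein of the endoplasmic reticulum, was higher in pHF than in HF (1.16) and lower in HF than in MF (-0.87). The other tested members passed in no comparison, where 51.7%, 50.5% and 51.2% of all genes passed between fractions and 38.1% between HF and MF. The median over the 6 genes was -0.03, -0.02 and -0.05, beside 0.05, 0.01 and 0.05 over all genes tested.

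Of the ABCA lipid transporters, 3 other genes were tested. Abca1, which exports cholesterol from cells, fell most, by -4.00, -2.31 and -2.78 between fractions, with 658 and 552 reads per cytosine in LF against 18.3 and 77.8 in pLF. All 3 fell for pHF against HF, as Abca2 did and as 22.8% of all genes did, with Abca7 at -1.32. Abca7 (1.16) and Abca3 (0.75), a surfactant lipid transporter in lung, were higher in HF than in MF. The median over the 3 genes was 0.04, 0.30 and -1.32.

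Of the MFSD transporters, 7 other genes were tested and both directions occurred. For pLF against LF 2 rose and 2 fell, for pMF against MF 3 rose and 2 fell, and for pHF against HF 1 rose and 1 fell, beside 28%, 27% and 28.3% of all genes that rose and 23.7%, 23.4% and 22.8% that fell. Mfsd12, a lysosomal cysteine transporter, had 101 and 98.9 reads per cytosine in LF against 278 and 309 in pLF (log2 1.55), Mfsd2a, which carries lysophosphatidylcholine, rose by 0.81 in pMF, and Mfsd11 rose by 0.75 in pHF. Mfsd14a fell by -1.16 and -1.52 in low and medium folate, and Mfsd14b by -1.25, -0.75 and -0.84. Mfsd2a (1.05) and Mfsd12 (0.94) were also higher in HF than in MF, like Mfsd10, and Mfsd14a was lower (-0.83). The median over the 7 genes was -0.24, 0.22 and -0.15.

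Of the mechanically gated channels and their relatives, 4 other genes were tested, and Pkd1 and Pkd2, the polycystins of the primary cilium, were lower in polysome mRNA in each folate group. Pkd1 had 807 and 705 reads per cytosine in LF against 336 and 153 in pLF, and its differences were -1.74, -1.66 and -1.30, while those of Pkd2 were -1.24, -1.06 and -1.12. Tmem63a, a stretch-activated channel, rose by 0.71 in pMF, and Tmem63b fell by -0.92 in pHF. No gene of this list passed between HF and MF, where 38.1% of all genes did, and no gene of the 4 lists passed between LF and MF, pLF and pMF or pHF and pMF. The median over the 4 genes was -0.87, -0.46 and -1.02.

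The genes whose coverage followed each of the 4 most closely were ranked by Pearson's r of log2 coverage over the 12 libraries, which share their fraction, folate group and library, and the values are descriptions. For Mfsd10 these were Grhpr (0.957), Col26a1 (0.956) and Baiap2 (0.949). For Abca2 they included Islr (0.953) and Upf1 (0.948). For Piezo1 they included Dnaaf5 (0.906) and Plekhm2 (0.887), and for Clcn3 they were Rrbp1 (0.890), Akap12 (0.839) and Morc3 (0.826). Among themselves the 4 genes did not follow each other, with r from -0.38 (Clcn3 and Abca2) to 0.44 (Piezo1 and Abca2).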

How the data were processed

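RNA BS-seq was done on poly(A) RNA of 12 libraries in 6 groups. Trimming (fastp), unique mapping to mm10 (meRanGh), cytosine calling (meRanCall) and gene annotation were done by the authors, whose later filters had not been applied to the lists. The deposited counts are the coverage, the methylated reads and the reads of another base at each cytosine, made by the authors without normalization, and no listed cytosine has a coverage under 10 or lacks a methylated read. The deposited level is a fraction that the authors made from these counts; recomputing it gave 0 mismatches, and it was recomputed as methylated reads over coverage less other-base reads.

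The 4 genes and all gene lists were chosen with earlier results of these data known. Rows with a variant base and the mitochondrial chromosome were left out. Gene coverage came from least squares of log2 coverage on cytosine and library, over cytosines in at least 2 libraries, for genes with at least 10 such cytosines in each library, and was tested with limma 3.58.1 (R 4.3.3, trend, 6 group means, two-sided, Benjamini-Hochberg, threshold 0.05) because a read counts at each cytosine it spans, so summed coverage is no read count. Site levels were not tested. Intervals are Wilson 95%. On simulated coverage of 2994 genes, pMF against MF recovered 74% of 100 genes changed 2-fold, 1% of 100 changed by a log2 of 0.5 and called 0 of 2794 unchanged. Few genes were changed there, whereas 50.5% of genes passed for pMF against MF in the data. The adjustment is stricter where few genes change, so these rates do not carry over to the fraction comparisons. Alternatives were edgeR 4.0.16 on the cytosines listed in all libraries, the mean of listed cytosines, quantile normalization, other minima, fewer libraries, a replicate block and leaving out each library, and for sites other thresholds; 1 was added after seeing the data. Genes were named as follows: the 4 throughout, up to 3 genes past the threshold with the largest difference per family list and comparison, and the 3 most alike genes of each, of which some are not reported here. Scripts used Python 3.11.15, numpy 2.4.6, pandas 2.3.3, scipy 1.17.1 and matplotlib 3.10.9; the genome was read with samtools 1.23.1.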

Additional observations from a re-analysis of the deposited data

How the results depend on the processing

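The lists leave out cytosines without a methylated read, so a shallow library lists fewer and better covered positions, and gene coverage rests on 21 to 871 cytosines of these genes per library. With 2 replicates, a gene that did not pass may still differ by a log2 of 0.5. The simulation recovered few such changes in its own setting. The called sites numbered 3 rather than 7 at a level of at least 0.2 (Abca2 exon 30 and both Mfsd10 sites), between 5 and 9 at the other thresholds and choices tried and 10 with either replicate alone, and the 5 sites called outside HF were left without the libraries labelled HF. Of 128 level differences recomputed, 12 changed sign. That 0 moved by more than the replicate spread is no sign of stability. The spread comes from the same replicates, so leaving 1 out or pooling reads cannot move a difference beyond it. Genes called for pLF against LF, pMF against MF, pHF against HF and HF against MF numbered 1805, 1763, 1805 and 1386 with at least 50 cytosines per library and 1554, 1581, 1709 and 1596 in edgeR, where fewer genes were tested, and HF against MF gave 1576 on the mean of listed cytosines. For pLF against pMF 5 genes passed with at least 5 cytosines and 6 with at least 50, and for pHF against pMF 2 passed with quantile normalization and 10 in edgeR, where limma had 0. Leaving out 1 library gave 2613 to 3689 genes for pLF against LF, 2372 to 2895 for pMF against MF, 2744 to 2883 for pHF against HF, 0 for LF against MF, 1354 to 1853 for HF against MF, 4 to 444 for pLF against pMF (444 without pLF replicate 2) and 0 to 15 for pHF against pMF. For the 4 genes, 341 differences were recomputed: 2 took the opposite direction past the threshold, Piezo1 for pLF against LF without pLF replicate 2 (0.43) and Clcn3 for pHF against HF in edgeR (-0.95, on the called site alone, whose coverage was used to choose it), 10 lost a call, 12 gained a call in the same direction (Piezo1 without pLF replicate 1 at -0.44 among them), and 40 that were never past the threshold changed sign. The cause was not tested. No shared effect of replicate number was detected, as replicate differences of the groups correlated at -0.17 to 0.13 over 15 pairs of groups. Noise between libraries can hide such an effect, so whether replicates of the same number share a culture is not known. A replicate block gave 3570, 3476, 3518 and 2603 calls for pLF against LF, pMF against MF, pHF against HF and HF against MF and 0 for the others.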
